A study of Drosophila melanogaster with 4 samples.

Results

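The telomere-proximal ends of 4 Drosophila melanogaster chromosome arms, 2L, 3L, 3R and X, were examined for regions enriched in the histone demethylase JMJD2A/KDM4A. Members were the enriched regions whose midpoint lay in the last 1 Mb before the end of the assembled arm, a window set by position alone. In release 5 positions these windows were 1 to 1000000 on 2L, 3L and X and 26905054 to 27905053 on 3R. They held 330 of the 11489 regions of ChIP replicate 1, 203 of the 5780 regions of ChIP replicate 2 and 337 of the 11016 regions of a series-wide list, named the combined list below. The windows were set against the interior of the same arms, taken as the arm without its distal 1 Mb and without the 2 Mb nearest the centromere. The interior spanned 85.9 Mb and held 7025, 3976 and 6794 regions in replicate 1, replicate 2 and the combined list.

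The libraries came from wild-type Oregon-R (Oregon-R-modENCODE) animals at the 3rd instar larval stage, and all of them share that strain, genotype and stage. Antibody against JMJD2A/KDM4A, an affinity-purified polyclonal from rabbit, was used for 2 ChIP libraries, and the series also holds 2 libraries of input DNA. The titles and source names, which set the groups here, conflict with the free text of a pair of samples: ChIP replicate 2 is described there as input, and input replicate 1 as ChIP. Each value that rests on replicate 2 depends on its title being right, so both replicates are given throughout. Region lists of the ChIP libraries and of the series were used; no list of the input libraries was analysed here. Whole larvae mix many tissues, so a region may come from some cells of the animal.

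KDM4A belongs to the JmjC family of enzymes, which take methyl groups off histone lysines, and it binds heterochromatin protein HP1a. Fly telomeres are not built by telomerase: their ends carry arrays of the retrotransposons HeT-A, TART and TAHRE, next to which lie subtelomeric repeats known as TAS, and HP1a is part of the cap that protects them. Genes placed near such chromatin can be silenced, which is called telomeric position effect. The windows studied here are assembled sequence on the inner side of such arrays; how much of the subtelomeric repeats the assembled ends hold was not examined. In the order of a release 6 gene table, the outermost protein-coding genes of 2L are l(2)gl, a tumour suppressor needed for cell polarity, Ir21a, an ionotropic receptor, and Cda5. On 3L the order begins with mthl8 and CG43149 and goes on with Lsp1gamma, a larval serum protein. On 3R it begins with Map205, a microtubule-associated protein, mod and krz, the non-visual arrestin. On X it begins with SteXh:CG42398, CG17636 and RhoGAP1A. Farther in on X are G9a, a histone methyltransferase, at place 7 and the transcription factor ewg at place 12. The positions of that table belong to another release, so no region below is assigned to a gene.

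KDM4A regions took up more of the distal 1 Mb than of the interior on 2L and 3L, and less on 3R and X, in both replicates and in the combined list. These directions belong to a window of 1 Mb. With 0.5 Mb the ratio of distal to interior cover was 1.26 in replicate 1 and 1.01 in replicate 2 on 3R, and 1.19 and 0.633 on X. With 2 Mb it was 0.882 and 1.12 on 2L and 0.898 and 1.16 on X. Under both settings 3L stayed above 1 in each replicate, at 1.02 to 1.43. Within 1 Mb on 2L KDM4A regions covered 26.1% of the distal window in replicate 1, against 21.9% of the interior. Replicate 2 had 16.8% distal and 11.9% interior on 2L, and the combined list 28.1% and 20.5%. The 3L end was the most covered of the 4 in each list, with 28.5% distal against 23.5% interior in replicate 1, 18.4% against 12.4% in replicate 2 and 30.5% against 22.3% in the combined list. Both left arms of the autosomes thus stood above their interiors in all 3 lists. The 3R end was the least covered, with 17.4% distal against 21.1% interior in replicate 1, 9.72% against 12.8% in replicate 2 and 17.7% against 20.8% in the combined list. The X end had 21.7% against 23.4% in replicate 1, 10.7% against 12.9% in replicate 2 and 20.3% against 23.5% in the combined list. As a ratio of distal to interior cover, the mean of the replicates was 1.30 ± 0.156 on 2L, 1.35 ± 0.186 on 3L, 0.792 ± 0.0444 on 3R and 0.878 ± 0.0697 on X (SD, n = 2 each). Pooled over the 4 arms the opposite deviations nearly cancelled. The distal windows together were covered to 23.4% in replicate 1 and 13.9% in replicate 2, their interiors to 22.4% and 12.5%, and the pooled ratio was 1.08 ± 0.0458 (SD, n = 2).

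**Figure D1:**
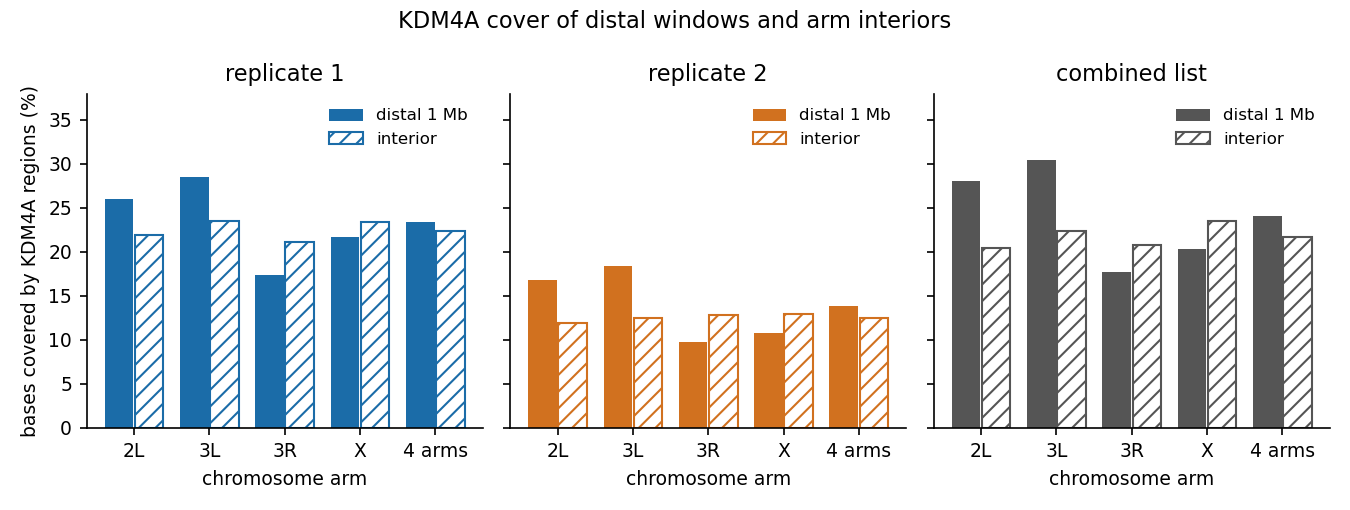
Share of bases covered by KDM4A regions (%) in the distal 1 Mb (filled bars) and in the interior (hatched bars) of each arm and of the 4 arms pooled, in 1 panel per list; each bar is a single value of that list. The filled bar is the taller one for 2L and 3L and the shorter one for 3R and X in every panel, and the pooled bars lie close together.

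No test was made of these differences. With 2 ChIP libraries an exact sign-flip permutation over samples cannot give a two-sided p below 0.5, and regions of 1 library are not replicates of each other. The labels do not say whether the numbered replicates came from separate collections of animals, so the spread between them may be technical. Read depth is unknown from the lists.

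The spread along each arm gives a scale for the distal values. Each arm was tiled with 1 Mb windows from its distal end, and the distal window was ranked by cover. The tiling included the 2 Mb nearest the centromere, which the interior leaves out. On 2L it was number 7 of 23 windows in replicate 1 and number 3 of 23 in replicate 2. On 3L it was number 8 of 24 in replicate 1 and number 2 of 24 in replicate 2, where its 18.4% stood just under the highest other window at 18.6%. On 3R it was number 20 of 27 in both replicates, and on X number 11 of 22 in replicate 1 and number 12 of 22 in replicate 2. In replicate 1 the other windows of 3L spanned 15.2% to 38.7% and those of 3R 10.3% to 32.2%. In replicate 2 they spanned 3.00% to 18.6% on 3L and 6.52% to 22.9% on 3R. On 3L the window nearest the centromere set both the 38.7% of replicate 1 and the 3.00% of replicate 2. The 2L windows nearest the centromere had 34.2% and 39.3% in replicate 1, above the distal window of 2L. In replicate 2 they had 8.48% and 6.68%, below it. None of the 4 distal windows lay outside the range of the other windows of its arm in either replicate. No region of any list crossed the inner border of a distal window. Just beyond that border, the second 1 Mb of 2L had 13.4% cover in replicate 1 and 10.1% in replicate 2, and that of 3R 12.4% and 7.98%. On 3L the second 1 Mb had 19.8% and 16.6%, and on X 20.6% and 18.7%, so on X replicate 2 had more cover there than in the distal window.

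**Figure D2:**
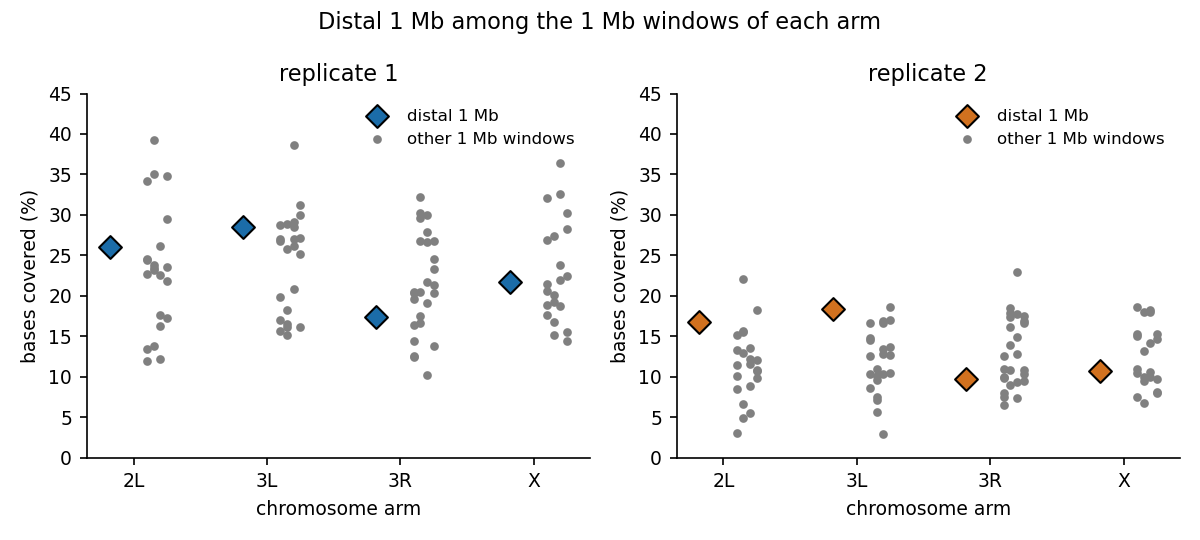
Bases covered (%) in every whole 1 Mb window of each arm, for replicate 1 and replicate 2. The diamond is the distal 1 Mb and each grey dot is another window of the same arm; the diamonds of 2L and 3L sit in the upper part of their arms, above all in replicate 2, and those of 3R and X at or under the middle.

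Counted as regions instead of bases, the distal windows differed less from the interior. On 2L there were 85 regions in the distal 1 Mb against 80.8 per Mb in the interior in replicate 1, and 56 against 43.1 in replicate 2. On 3L there were 97 against 86.5 and 65 against 46.5. The 3R end held 64 against 78.1 per Mb in replicate 1 and 36 against 46.0 in replicate 2. On X the 2 replicates disagreed, with 84 against 82.4 and 46 against 49.8. The mean ratio was 1.18 ± 0.174 on 2L, 1.26 ± 0.196 on 3L, 0.801 ± 0.0261 on 3R, 0.972 ± 0.0673 on X and 1.05 ± 0.0620 pooled (SD, n = 2 each).

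With the 1 Mb window and the whole lists, members were of ordinary size and slightly low score. Their median width was 2172 bp in replicate 1 against 2180 bp in the interior, and 2197 bp against 2268 bp in replicate 2. The authors' enrichment score, whose scale is not named, was read within each list only. Its median over members was 0.75 in replicate 1 against 0.78 in the interior, 0.64 in replicate 2 against 0.69, and 0.46 in the combined list against 0.48. The median was lower in the distal window than in the interior on each of the 4 arms in all 3 lists, with differences of -0.069 to -0.022 in replicate 1 and -0.054 to -0.014 in replicate 2. In the combined list they were -0.024 to -0.0005, the smallest on 3R. With a window of 0.5 Mb the pooled difference was 0.018 in replicate 1 and -0.047 in replicate 2. Few members reached the top of a list: 14 of 330 (4.24%) were in the highest-scoring 10% of replicate 1, against 6.78% of interior regions, and 12 of 203 (5.91%) in replicate 2, against 9.91%.

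Inside the distal window the replicates parted toward the tip. In replicate 1 cover was highest in the outermost 300 kb and lower inward, while replicate 2 had low values at the very end. Averaged over the 4 arms, the 100 kb bins counted from the end were covered in replicate 1 to 37.3%, 35.6%, 36.7%, 21.6% and 23.1% for the outer 5 and to 21.7%, 18.3%, 8.86%, 22.9% and 7.91% for the inner 5. The same bins in replicate 2 had 10.2%, 12.0%, 21.5%, 14.5% and 17.0%, then 17.8%, 16.2%, 8.38%, 18.1% and 3.46%. The replicates were thus closer to each other in the inner 5 bins than in the outer 3.

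**Figure D3:**
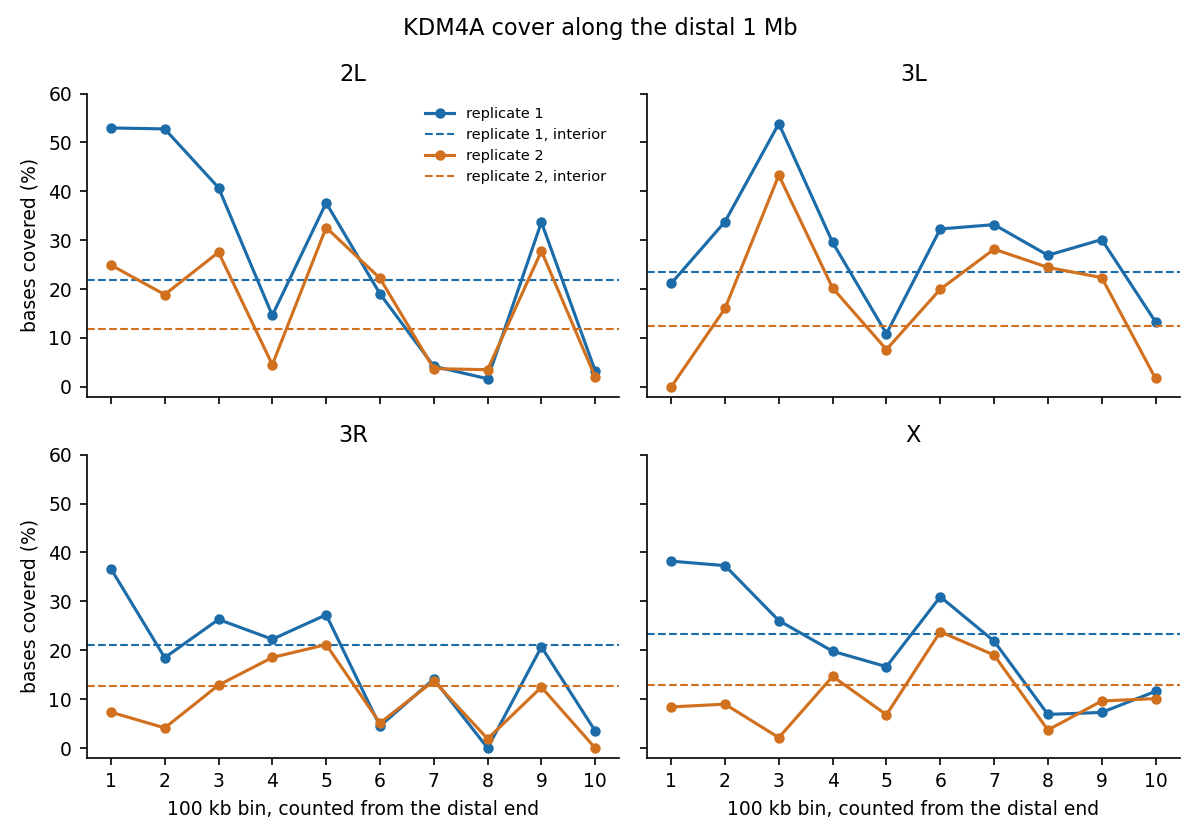
Bases covered (%) in the 10 bins of 100 kb of each distal window, counted from the distal end, for replicate 1 and replicate 2; dashed lines are the interior values of the same arm and replicate. Replicate 1 lies far above replicate 2 in the outermost bins of 2L, 3R and X, and on 3L replicate 2 starts at 0; on 2L, 3R and X the widest gap between the curves is in bin 1 or 2.

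The outermost 100 kb differed by arm. On 2L its cover was 53.0% in replicate 1, against 23.1% in the other 900 kb of the window, and 24.9% in replicate 2, against 15.9%. On 3R it was covered to 36.7% in replicate 1, against 15.2% in the other 900 kb, and to 7.35% in replicate 2, against 9.99%. X had the same order, with 38.2% against 19.8% in replicate 1 and 8.41% against 11.0% in replicate 2. The 3L tip was the exception in replicate 1, with 21.1% against 29.3%, and it held no region at all in replicate 2, where the other 900 kb had 20.4%. Pooled, the ratio of the outermost 100 kb to the rest of the window was 1.70 in replicate 1 and 0.710 in replicate 2, on opposite sides of equality (mean 1.21 ± 0.703, SD, n = 2), and 1.16 in the combined list. It was 2.20 in replicate 1 and 1.10 in replicate 2 without 3L, and 1.49 and 0.381 without 2L. Set among the 100 kb bins of its own arm outside the 2 Mb nearest the centromere, the 2L tip was number 6 of 210 bins by cover in replicate 1 and number 27 in replicate 2. The 3R tip was number 37 of 259 in replicate 1 and number 169 in replicate 2, and the X tip number 41 of 204 and number 133. The 3L tip stood lower, at number 124 of 225 in replicate 1 and number 206 in replicate 2. The excess of replicate 1 over replicate 2 was 28.0 percentage points at the 2L tip, 29.3 at the 3R tip, 29.8 at the X tip and 21.1 at the 3L tip. It was number 8 of 210, 7 of 259, 10 of 204 and 28 of 225 among the bins of those arms, where its median over the other bins was 6.79 to 10.1 points.

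Pooled, regions of replicate 1 recurred in replicate 2 about as often in the distal windows as in the interior, but seldom at the tips. A region was taken as found in another list when it shared at least 1 bp with a region there. In the distal windows 183 of 330 replicate 1 regions were found in replicate 2 (55.5%, exact Clopper-Pearson 95% interval 49.9 to 60.9), against 51.9% in the interior (50.7 to 53.1) and 45.8% of the whole list. The distal share was above the interior on 2L (60%, 48.8 to 70.5, against 49.6%) and 3L (61.9%, 51.4 to 71.5, against 49.4%). It was below the interior on 3R (50%, 37.2 to 62.8, against 54.7%) and X (47.6%, 36.6 to 58.8, against 53.7%). These intervals treat regions of 1 library as independent, which neighbours are not, so they do not test a distal share against the interior. In the outermost 100 kb the pooled count was 11 of 46 (23.9%, 12.6 to 38.8). In the other 900 kb it was 172 of 284 (60.6%, 54.6 to 66.3). The share at the tips was 3 of 46 (6.52%) when 50% reciprocal overlap was asked for, and was 10 of 26 (38.5%) both in the part of replicate 1 at or above its median score and with replicate 1 limited to its 5780 best-scoring regions. By arm it was 5 of 14 at the 2L tip, 0 of 10 at the 3L tip, 3 of 10 at the 3R tip and 3 of 12 at the X tip. At the 3L tip replicate 2 held no region, so 0 of 10 (0 to 30.8%) could not come out otherwise. Without 3L the pooled count at the tips was 11 of 36 (30.6%). Scores of the tip regions that were not found were not read apart from those that were. The median score of all replicate 1 regions was 0.87 in the outermost 100 kb, 0.71 in the other 900 kb and 0.78 in the interior. By arm the tip median was 0.89 on 2L, 0.99 on 3R and 1.15 on X, each above its interior. On 3L it was 0.75, against 0.76 in the 3L interior. In replicate 2, with 14 regions at the tips, the medians were 0.78, 0.63 and 0.69, but the 8 of them on 2L had 0.63, against 0.63 in the other 900 kb and 0.66 in the 2L interior. With tips of 200 kb the replicate 2 medians were 0.58, 0.65 and 0.69, so the order did not hold there. The intervals cover counting error only.

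In the other direction, by at least 1 bp, most distal regions of replicate 2 had a counterpart in the longer list of replicate 1. Replicate 1 touched 182 of 203 (89.7%, exact 95% interval 84.6 to 93.5), against 92.1% in the interior (91.2 to 92.9) and 91.8% of the whole list. At the tips it touched 13 of 14. By arm the share was 95.4% on 3L (62 of 65), 91.1% on 2L (51 of 56), 87.0% on X (40 of 46) and 80.6% on 3R (29 of 36). The 3R interval, 64.0 to 91.8, just reaches above the 90.8% of the 3R interior. All 203 distal regions of replicate 2 were touched by the combined list, against 97.8% in the interior, and 280 of 330 of replicate 1 were (84.8%, 80.5 to 88.5), against 82.6%.

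By bases the same contrast held between tip and window. Replicate 2 covered 59.4% as many bases as replicate 1 in the distal windows and 55.9% in the interior. In the outermost 100 kb the figure was 27.3%, and it was 47.0% on 2L, 22.0% on X, 20.0% on 3R and 0 on 3L. In successive steps of 250 kb from the end it was 34.7%, 70.4%, 85.5% and 73.1%, while the share of replicate 1 regions found in replicate 2 was 33.0% (24.4 to 42.6), 63.4% (52.8 to 73.2), 75.7% (64.0 to 85.2) and 61.8% (47.7 to 74.6). Pooled, the shared bases were 43.1% of the joint bases in the distal windows and 43.3% in the interior, against 24.6% in the outermost 100 kb. By arm the distal share was above that of the interior on 2L (47.9% against 42.3%) and 3L (48.6% against 41.3%). It was below it on 3R (35.6% against 44.2%) and X (36.2% against 45.4%). Where replicate 2 did have bases at the tips, 92.1% of them lay inside replicate 1 regions. The share of a list that can be found depends on how dense the other list is, and replicate 2 had 35.0 regions per Mb at the tips, 52.5 in the rest of the windows and 46.3 in the interior.

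**Figure D4:**
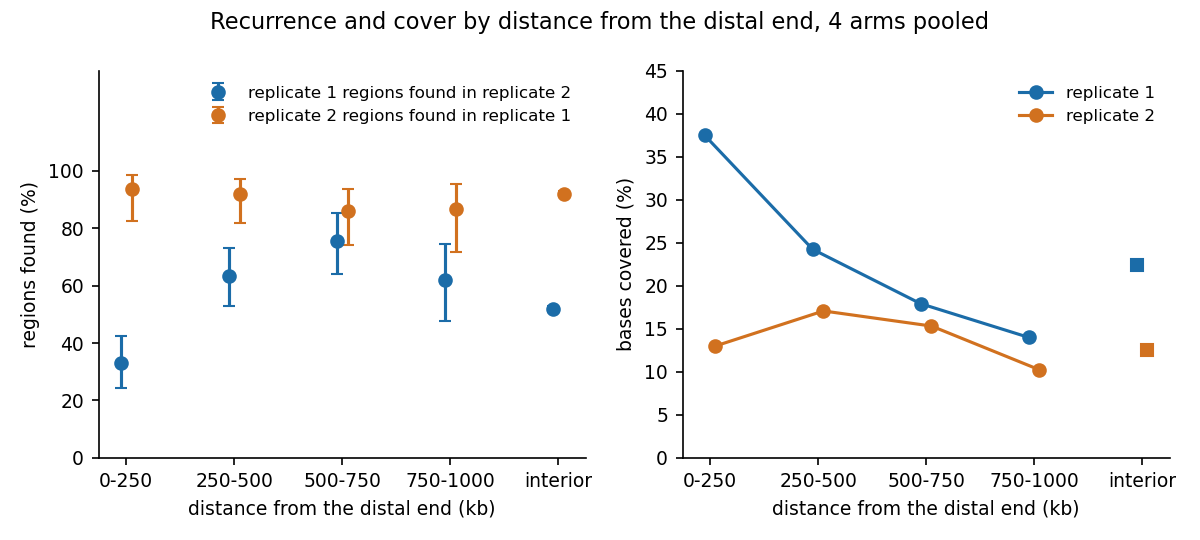
Left, share of regions found in the other replicate (%) in steps of 250 kb from the distal end and in the interior, with exact 95% intervals; right, bases covered (%) over the same steps, 4 arms pooled. Replicate 1 has its highest cover, 37.5%, and its lowest recurrence, 33.0%, in the step nearest the end, while replicate 2 regions are found in replicate 1 at 86.0% to 93.6% in every step.

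Of the 337 members in the combined list, 166 were touched by both (49.3%, 43.8 to 54.7), against 50.4% of interior regions and 44.6% of the whole list. A further 105 (31.2%, 26.2 to 36.4) were found in replicate 1 alone, against 34.2% in the interior and 38.8% of the whole list. Those in replicate 2 alone numbered 25 (7.42%, 4.86 to 10.8), against 3.96% in the interior (3.51 to 4.45) and 3.72% of the whole list, and 41 were in neither (12.2%, 8.87 to 16.1), against 11.4% and 12.8%. On 3R 8 of 64 regions were found in replicate 2 alone (12.5%, 5.55 to 23.2), against 5.07% in its interior. Regions found in both had a median width of 3039 bp and a median score of 0.66 in this list, those in replicate 1 alone 1871 bp and 0.41, those in replicate 2 alone 1709 bp and 0.29, and those in neither 1123 bp and 0.41. Width itself raises the chance of an overlap, and the combined list stems from the same series, so these widths and scores are not independent of the class.

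**Figure D5:**
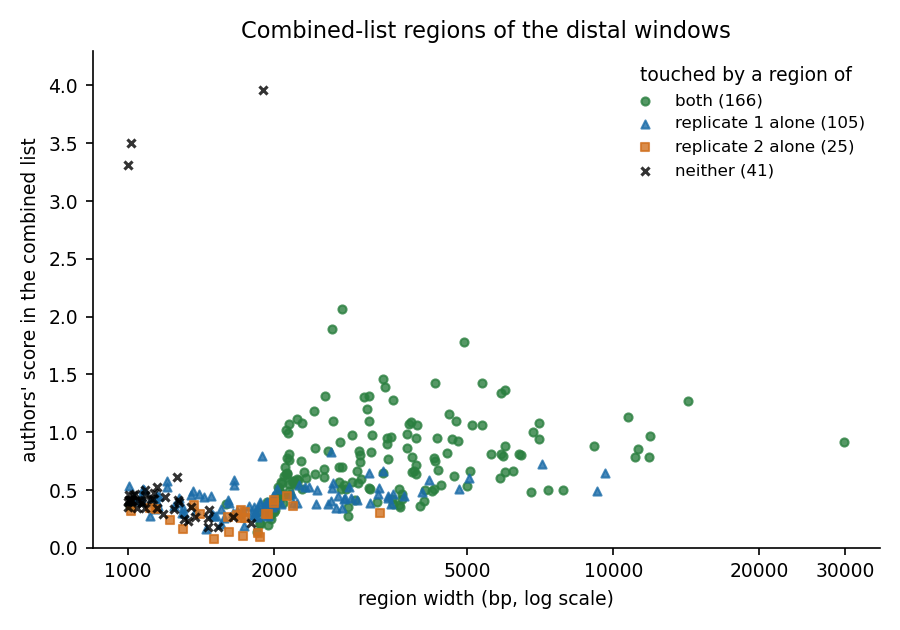
Width (bp, log axis) and authors' score of each of the 337 combined-list regions of the distal windows, marked by the replicate lists that touch it. All regions over 10 kb, up to 29885 bp, are found in both replicates, and regions found in replicate 1 alone reach 9605 bp. The 3 narrow regions with scores above 3 are touched by neither.

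Wide regions were found mainly at the 2L end. Regions over 10 kb made up 7 of the 337 combined members, 5 of them on 2L, 1 on 3L and 1 on X. In the combined list they made up 67 of 6794 interior regions and 1.47% of the whole list. Replicate 1 had 6 among its 330 members, 4 of them on 2L, against 59 of 7025 interior regions and 1.28% of its list. Replicate 2 had 1 of 203, against 19 of 3976 interior regions and 0.502% of its list. All 7 combined regions of this size were touched by both replicates, as were 95.1% of the 162 such regions of the whole list.

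At the 2L tip, enrichment began 5.06 kb from the end of the assembled arm in replicate 1 and 8.39 kb from it in replicate 2. The second combined region from the end, 2L 8462 to 22692 (14.2 kb, score 1.27), was the widest of this end, ahead of 2L 470280 to 482198 (11.9 kb) and 2L 93376 to 105206 (11.8 kb). Replicate 1 had a single region of 13.9 kb there, 2L 8755 to 22644 with score 1.86, the widest of its 2L members. Replicate 2 had 3 regions over the same stretch, 2L 8392 to 15687 (score 0.80), 17421 to 20036 (1.11) and 20404 to 22693 (0.79), which covered 85.2% of it. On either side, the combined regions 2L 5058 to 7702 and 2L 25246 to 26520 were covered by replicate 1 in full and touched by no region of replicate 2. The best-scoring combined regions of this end lay farther in, at 2L 293550 to 298906 (1.42), 539592 to 545576 (1.37) and 412866 to 416386 (1.28), and both replicates covered 75.6% or more of each. The best replicate 1 region of 2L, 539575 to 543831 (1.91), and the best of replicate 2, 413502 to 417073 (1.45), fall on the last pair. The widest replicate 2 region was 2L 864872 to 875036 (10.2 kb), covered in full by 1 region of replicate 1.

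At the 3L tip, the first region of replicate 1 lay 51.2 kb from the end and that of replicate 2 128 kb from it, the farthest of the 4 arms in both. The first combined region, 3L 21206 to 23102, had the highest score of the whole combined list, 3.96, and was touched by neither replicate. The next, 3L 52018 to 53220 and 57976 to 61122, were touched by replicate 1 alone. The widest member of any list was 3L 222408 to 252292, 29.9 kb with a combined score of 0.91. Replicate 1 split it into 3 regions, the largest 3L 222489 to 239710 (17.2 kb, score 1.31), and replicate 2 into 6, the largest 3L 222296 to 232087 (9.79 kb, 1.11). Replicate 1 covered 94.5% and replicate 2 87.5% of a neighbour at 3L 204852 to 213992 (9.14 kb). The third widest, 3L 573928 to 581064 (7.14 kb), lay wholly inside 1 replicate 1 region of score 1.36 and had nothing in replicate 2. The best-scoring replicate regions of this end were 3L 538755 to 541921 (1.95) in replicate 1 and 3L 198165 to 201520 (1.36) in replicate 2, each with a counterpart in the other list over 74.7% and 86.4% of its length.

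At the 3R tip, both replicates had a region close to the end. Replicate 1 began 9.43 kb and replicate 2 9.72 kb from it, both in regions that touch the combined region 3R 27893114 to 27895526 (2.41 kb, score 1.19), which was covered to 100% and 90.6%. This was the only one of the 4 arms where the outermost combined region was found in both. Just inward, 3R 27886190 to 27891232 was found in replicate 1 alone, and 3R 27875476 to 27882310 in both, over 100% and 45.2% of its length. The widest combined member here, 3R 27667888 to 27677492 (9.61 kb), was covered in full by the widest replicate 1 region, 3R 27667375 to 27677651 (10.3 kb, score 1.69), and had no counterpart in replicate 2. In contrast, 3R 27043052 to 27047970, 857 kb from the end, was the best-scoring member of this arm in all 3 lists, scored 1.98 by replicate 1, 1.73 by replicate 2 and 1.78 in the combined list. It was covered to 97.0% and 97.7%, and its replicate 2 region was number 89 of 5780 by score.

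At the X tip, enrichment began 2.06 kb from the end of the assembled arm in replicate 1, the closest of the 4 arms in that list, and 18.0 kb from it in replicate 2, where 2L and 3R began closer. The 3 outermost combined regions, X 2056 to 3710, 3854 to 5744 and 8840 to 11452, were found in replicate 1 alone. The widest, X 228174 to 239230 (11.1 kb), was covered to 99.8% in replicate 1 but to 19.3% in replicate 2, and the next, X 154432 to 160880, to 100% and 43.1%. The third widest, X 547704 to 553062, lay farther in and was covered to 97.2% and 70.7%. X 651848 to 654612 and X 689428 to 692056 were picked by score instead of width, so distance alone does not set them apart. X 651848 to 654612 (combined score 2.07) was covered to 97.7% and 99.4%, with a score of 2.15 in replicate 2 and of 2.07 in replicate 1, the highest of any replicate 1 member. X 689428 to 692056 was covered to 96.8% and 100%, and its replicate 2 region, with a score of 2.35, was number 16 of the 5780 regions of that list. The combined region with the best score of this end, X 722726 to 723738 (3.50), was touched by neither replicate.

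Among the regions named by rule in the combined list, support by the replicates was counted for each part of the rule. Over the whole list 44.6% were found in both, 38.8% in replicate 1 alone and 12.8% in neither. Of the 12 nearest the ends, 8 were found in replicate 1 alone, 3 in both and 1 in neither. Of the 12 widest, 10 were found in both and 2 in replicate 1 alone, and of the 12 best-scoring, 9 were found in both and 3 in neither. Those 3 were the 2 regions of 3L at 21206 and 110260 and that of X at 722726. They were 1001 to 1897 bp wide, with scores of 3.31 to 3.96, and the next highest score among the 41 members found in neither replicate was 0.61.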

How the data were processed

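KDM4A ChIP-seq region lists of 2 ChIP libraries and 1 combined list of the series were analysed. The submitters' processing notes name Bowtie 0.12.7 as a tool. Coordinates follow FlyBase release 5, per the file headers, and are 1-based here. The deposited lists give each region a start, an end and the authors' own score. The caller and its threshold, the scale of the score, what the input libraries were used for and how the combined list was made: not given in the sources used here. Grouping followed titles and source names; the free-text descriptions of ChIP replicate 2 and input replicate 1 name the other kind of DNA. Depth is unknown.

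Arm lengths came from the file headers and were not corrected for gaps. Cover is the count of bases that fall in regions, divided by window length. The only row typed as depleted was left out; it lay outside the windows. Intervals of shares are exact Clopper-Pearson 95% intervals (Python 3.11.15, scipy 1.17.1). The code was tested on simulated lists. Named regions were the 3 widest, 3 best-scoring and 3 nearest the end of each window in the combined list (34 in all), and the widest and best-scoring member of each replicate list and window. Windows, lists and rules were chosen with earlier results of these data known. The steps of 250 kb, the ranks of 100 kb bins and the recurrence at the tips were chosen after seeing the data. No annotation of release 5 was used, so the planned comparison with gene parts was not made and no sequence is shown. Arm 2R was not used here.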

Additional observations from a re-analysis of the deposited data

Results flagged for a closer look

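The distal windows of the 4 arms deviated from their interiors in opposite directions, and with the 1 Mb window both replicates deviated the same way in each arm. The mean ratio of distal to interior cover was 1.30 on 2L (1.19 in replicate 1 and 1.41 in replicate 2) and 1.35 on 3L (1.21 and 1.48). It was 0.792 on 3R (0.823 and 0.761) and 0.878 on X (0.927 and 0.828). The difference between arms was not tested. With a window of 0.5 Mb the mean ratios were 1.83 on 2L, 1.33 on 3L, 1.13 on 3R (1.26 and 1.01) and 0.912 on X (1.19 and 0.633). With 2 Mb they were 1.00 on 2L (0.882 and 1.12), 1.23 on 3L, 0.688 on 3R and 1.03 on X (0.898 and 1.16). The replicates thus fell on opposite sides of equality on X with either window and on 2L with 2 Mb.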

How the results depend on the processing

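Of 130 alternative values, 92 stayed within the spread, taken as 1 SD of the 2 replicates or the exact 95% interval of a share. With n = 2 either replicate alone lies within 1 SD by construction. Counting regions at full width, or only those wholly inside a window, returned the main values. No region crossed the inner border of a distal window, so these settings had little to change. The pooled cover ratio (1.08) became 1.29 with a window of 0.5 Mb, 0.986 with 2 Mb, 1.03 in the part of each list at or above its median score (the higher-scoring part), 1.01 without 2L, 0.986 without 3L, 1.17 without 3R and 1.15 without X, so its side of equality depends on window size and arm. In replicate 1 alone it was 1.39 with 0.5 Mb and 0.881 with 2 Mb. The density ratio (1.05) became 1.21, 0.986 and 0.962 in the first 3 of these settings, 0.981 without 3L and 1.13 without 3R. The width difference (-39.8 bp) became 73.5 bp with 0.5 Mb, 225 bp in the higher-scoring part, 158 bp with replicate 1 limited to its 5780 best-scoring regions and 31.0 bp without X. The score difference (-0.041) became -0.015 with 0.5 Mb, -0.020 in the higher-scoring part, -0.0055 with replicate 1 reduced, -0.017 in the combined list, -0.053 without 3R and -0.052 without X. In the first 3 of these settings its sign differed between the replicates. It was 0.018, 0.035 and 0.037 in replicate 1, against -0.047, -0.075 and -0.048 in replicate 2. Replicate 1 regions found in replicate 2 (55.5%) became 42.1% at 50% reciprocal overlap, 46.8% with 0.5 Mb, 65.9% in the higher-scoring part and 65.4% after reducing replicate 1. Replicate 2 regions found in replicate 1 (89.7%) became 68.5% at 50% reciprocal overlap, 100% in the higher-scoring part and 48.3% after reducing replicate 1. Combined regions found in both (49.3%) became 41.6% with 0.5 Mb and 80.6% in the higher-scoring part. At the tips 23.9% became 6.52% at 50% reciprocal overlap, 33.3% in the last 50 kb, 30.1% in the last 200 kb, and 38.5% both in the higher-scoring part and after reducing replicate 1. For these shifts the cause was not tested, except that reducing replicate 1 removes regions to be touched.

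Leaving out 1 replicate gave cover ratios of 1.04 to 1.11, density ratios of 1.01 to 1.10, width differences of -71.0 to -8.50 bp, score differences of -0.048 to -0.033 and tip ratios of 0.710 to 1.70. The tip ratio of replicate 1 was 2.30 when reduced. No paired analysis was possible because no list of the input libraries, which carry the same replicate numbers, was analysed here. The planned setting for gene parts was not run. Depth is unknown, so its limit on these values has no bound.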

Other observations

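In each distal window the longest stretch free of KDM4A regions lay at a different place in each replicate. Stretches of the interior were not compared. In replicate 1 the longest was 3R 27090552 to 27206045 (115 kb), followed by 2L 711005 to 814993 (104 kb), 3L 362350 to 431796 (69.4 kb) and X 835797 to 903552 (67.8 kb). All 203 distal regions of replicate 2 touched the combined list. That list held no member found in replicate 2 between 3L 362516 and 432102 or between X 835906 and 919718. The 3L and X stretches were thus at least largely free in replicate 2 too. Those of 2L and 3R held combined regions found in replicate 2 alone, starting at 2L 713974 and 717648 and at 3R 27135976. In replicate 2 the longest was X 232163 to 369234 (137 kb), followed by 3R 26905054 to 27038171 (133 kb), the 3L tip from 1 to 128470 (128 kb) and 2L 902509 to 1000000 (97.5 kb). Those of 3R and 2L in replicate 2 run to the inner border of the window and are measured up to it. In the last 100 kb before that border, cover was 2.00% on 2L, 1.71% on 3L and 0 on 3R in replicate 2, and 3.26%, 13.3% and 3.49% in replicate 1. X had 10.1% in replicate 2 and 11.6% in replicate 1.

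As a description, covered bases of the replicates correlated over the 40 bins of 100 kb in the distal windows with r = 0.72 and rho = 0.72, and over 858 interior bins with r = 0.84 and rho = 0.88. For the 183 distal replicate 1 regions with a counterpart, scores correlated with the best score they touched in replicate 2 with r = 0.64 and rho = 0.59, and for 3646 interior regions with r = 0.68 and rho = 0.63. Bins and regions share their libraries, and neighbours are not independent.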
